A study of Mus musculus with 23 samples.

Results

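The kinesin, dynein and dynactin motor genes comprise the protein-coding mouse genes whose symbol begins with Kif, Klc, Dync, Dynl or Dctn. A mean of at least 1 count per 1000000 counts of the library (CPM) over the 12 soma libraries was required, and pseudogenes were dropped. Of 55487 gene IDs, 75 carried such a symbol, 70 of these were protein-coding, and 65 passed the minimum. They fall into 7 kinesin-1 genes, 5 kinesin-2 genes, 7 kinesin-3 genes, 11 other interphase kinesins, 13 cell division kinesins, 5 heavy, intermediate and light intermediate chains of cytoplasmic dynein-1, 9 dynein light chains, 2 dynein-2 genes and 6 dynactin subunits. Just above the minimum lay Kif14 at 1.68 CPM, Kif6 at 1.78 CPM and Kif19a at 2.14 CPM, and just below it Kif27 at 0.985 CPM, Kif7 at 0.557 CPM and Kif28 at 0.244 CPM. Kif12 and Kif2b had no count in any soma library.

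Microtubules give each neurite a polar track. Kinesins are ATP-driven motors, most of which walk toward the plus ends that point away from the cell body in axons, and so carry vesicles, mitochondria and RNA granules outward. Cytoplasmic dynein-1 walks the other way, returns signalling endosomes and worn organelles to the cell body, and needs the dynactin complex for long runs, while a separate group of kinesins works on the mitotic spindle.

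The study asked how force on growing axons changes their RNA. Hippocampal cells of C57Bl/6 mouse pups at postnatal day 1 were seeded on one side of a microfluidic chamber whose grooves let axons pass to the other side, which carried a denser coating. Every group, controls included, received magnetic nanoparticles at 5 µg/ml. A field gradient of 50 T/m pulled on them from day in vitro 1 to 6 in the cultures called stretched, and was null in those called control. RNA with poly(A) tails was sequenced in 6 libraries each of control somata, stretched somata and stretched axons and in 5 of control axons. Soma here means the cell-body side, which the labels call total cell culture. The labels do not say whether replicates were separate cultures or animals, so p-values measure the spread between these libraries, which may be technical.

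Totals ran from 16369153 to 43048953 counts per library, so that 3 counts, the limit that a count of 0 allows, stood for 0.0697 to 0.183 CPM. Such limits cover counting error only. All 65 motor genes had counts in every soma library, and 21 to 48 of them in an axonal library. The preparations labelled as purely axonal also held counts of astrocyte markers. Of 10 astrocyte markers, 9 had axonal counts, with summed levels of 6166 to 29671 CPM, against 3231 to 6036 CPM for 10 neuron markers in the same libraries. In somata the astrocyte markers summed to 5780 to 15445 CPM and the neuron markers to 7498 to 9497 CPM. The astrocyte marker Gjb6 had no axonal count. Per axonal library, microglia markers summed to 0 to 736 CPM, oligodendrocyte markers to 0.0611 to 438 CPM, proliferation markers to 0 to 1954 CPM and nuclear or somatodendritic transcripts to 1029 to 3311 CPM. The part of RNA other than axonal RNA in these values was not tested. In bulk libraries fewer cells of a type and less RNA per cell cannot be told apart.

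A single control library stood apart and touches every soma result. Control soma replicate 4 lay nearer to the stretched libraries (root mean square log2 distance 0.382 over 15632 genes) than to the other controls (0.6). Each other control library lay nearer to the controls, and each stretched library lay nearer to the other stretched ones. A mix-up of labels and a difference between cultures cannot be told apart for this library, so the values given for control somata hold only as far as its label does. It was kept in the main values, and the counts by role are given with and without it. The library was singled out by its nearness to the stretched libraries, so leaving it out favours more calls by construction. Calls that pass only without it are therefore no added support. The soma libraries also formed a pair of sets by the level of Eif2s3y, a Y-linked gene. Control replicates 1, 2 and 3 with stretched replicates 1, 2 and 8 (set A) had 24.7 to 28.7 CPM, and control and stretched replicates 4, 5 and 6 (set B) had 5.39 to 13.2 CPM. The labels name no batch.

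To compare levels between genes, soma CPM was divided by transcript length. Dynlrb1, a roadblock-type light chain of dynein, came first with 461 ± 95.3 CPM per kb (SD, n = 12), followed by the kinesin light chain Klc1 with 392 ± 30.0. The LC8 light chain Dynll1 had 331 ± 66.8, the dynactin subunit Dctn3 249 ± 46.4 and the neuronal kinesin-1 heavy chain Kif5c 193 ± 26.4 CPM per kb. The ranges of neighbours in this order overlapped, 371 to 629 for Dynlrb1 and 324 to 423 for Klc1. Among the 3 kinesin-1 heavy chains, Kif5c made up 55.4 to 61.5% of the summed CPM per kb in control somata, Kif5a 25.1 to 32.4% and the widely expressed Kif5b 10.6 to 16.2%. Kif1a, the kinesin-3 that carries synaptic vesicle precursors, stood at 123 ± 13.0 CPM per kb.

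Of the 65 motor genes, 20 differed between stretched and control somata with edgeR's quasi-likelihood test (adjusted p under 0.05), or 30.8%, against 25.1% of the 15632 genes tested. The 20 were 10 higher and 10 lower, where 11.2% of all genes were called higher and 13.9% lower. The median log2 fold change was 0.0013 over the motor genes and -0.0284 over all genes. Without control soma replicate 4, 33 motor genes were called, the same 20 among them, 17 higher and 16 lower, against 38.3% of all genes (18.2% higher, 20.1% lower). Values of the stretched and control groups did not overlap for 4 motor genes, 6.15% against 4.11% of all genes, and without that library for 24, or 36.9% against 23.5%. The counts by role given below stand against these shares of calls over all genes, and no role was tested as a set.

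**Figure D1:**
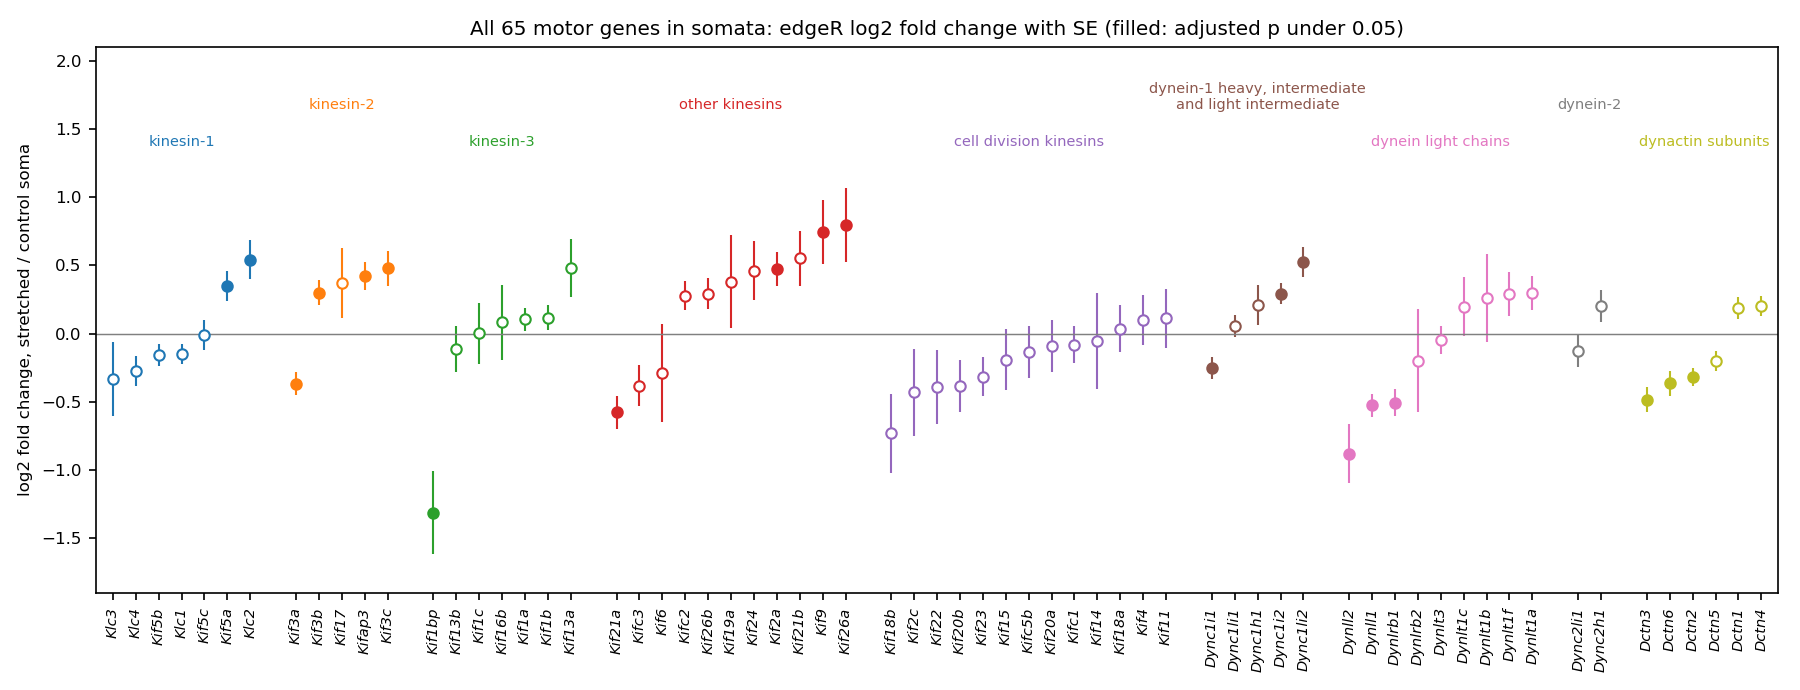
Log2 fold change of each of the 65 motor genes in stretched against control somata (y axis), with its standard error, grouped by role along the x axis; filled circles passed an adjusted p of 0.05 with edgeR. The 20 filled circles split into 10 above and 10 below 0, and none of the 13 cell division kinesins is filled.

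Among the dynein light chains, which link the motor to cargo and stabilise its stem, 3 of 9 fell and none rose. Over all genes 13.9% fell and 11.2% rose. Without control soma replicate 4 the same 3 fell and Dynlt1a rose. Dynll1 (chromosome 5, 115297110 to 115300999, minus strand, mm10) had 601, 819 and 854 CPM in control somata (lowest, median and highest of 6) and 491, 573 and 579 CPM in stretched somata. The groups did not overlap, and the lowest control value belonged to replicate 4. The log2 fold change was -0.53 ± 0.09 (SE, adjusted p = 0.00335 with edgeR) and -0.61 without control soma replicate 4. Its paralog Dynll2, encoded on chromosome 11 (87979525 to 87987533, minus strand), fell by 0.88 ± 0.22 on the log2 scale (SE, adjusted p = 0.012). Within set A it was -0.80 and did not pass (adjusted p = 0.0691). Its control values spread from 30.6 to 81.7 CPM around a median of 47.6 CPM and met the stretched ones, 21.6 to 36.5 CPM around 28.9 CPM. Both encode LC8, so their coding sequences are set side by side to show how reads of the pair can be told apart; capitals mark the 50 positions of 267 at which they differ, which leaves 81.3% identity.
Dynll1: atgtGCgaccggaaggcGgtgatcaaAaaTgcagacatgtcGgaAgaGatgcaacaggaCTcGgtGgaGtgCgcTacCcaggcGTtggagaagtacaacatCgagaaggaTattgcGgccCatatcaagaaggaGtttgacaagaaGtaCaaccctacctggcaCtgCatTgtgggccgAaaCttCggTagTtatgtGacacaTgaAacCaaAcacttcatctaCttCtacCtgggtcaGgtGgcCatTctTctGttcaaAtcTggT
Dynll2: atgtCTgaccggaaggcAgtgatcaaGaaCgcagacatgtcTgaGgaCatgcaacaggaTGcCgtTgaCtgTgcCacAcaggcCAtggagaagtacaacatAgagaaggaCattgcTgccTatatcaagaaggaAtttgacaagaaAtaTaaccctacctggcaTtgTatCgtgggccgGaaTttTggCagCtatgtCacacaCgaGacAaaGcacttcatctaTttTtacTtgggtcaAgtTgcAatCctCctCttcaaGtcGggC

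Dynlrb1 fell as well, from 421 ± 64.8 CPM (SD, n = 6) to 306 ± 11.6 CPM (SD, n = 6), with a log2 fold change of -0.51 ± 0.10 (SE, adjusted p = 0.00523 with edgeR). In 5 of 6 control libraries it lay between 398 and 495 CPM, above every stretched library (292 to 319 CPM). Control replicate 4, at 306 CPM, lay among the stretched libraries. The Tctex-type chains showed no call. Dynlt1a read 24.4 ± 4.38 CPM in control and 30.8 ± 3.05 CPM in stretched somata (SD, n = 6 each, adjusted p = 0.0869), and Dynlt3 51.9 ± 8.01 and 51.7 ± 4.63 CPM. Counts of the Dynlt1 genes are uncertain, since Dynlt1a, Dynlt1c and Dynlt1f share 100% of their 339 coding bases and Dynlt1b 99.7% with them, and reads that aligned to several places were not counted. The first 60 coding bases are shown because they hold the sole coding difference among the 4 copies, in capitals.
Dynlt1a: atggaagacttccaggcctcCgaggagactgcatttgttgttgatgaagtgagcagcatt
Dynlt1b: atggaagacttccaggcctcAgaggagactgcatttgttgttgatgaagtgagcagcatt
Dynlt1c: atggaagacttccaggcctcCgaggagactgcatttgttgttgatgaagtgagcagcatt
Dynlt1f: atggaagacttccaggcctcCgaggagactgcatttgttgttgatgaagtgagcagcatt

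Dynactin, the activator that ties dynein to cargo and microtubules, had 3 of 6 subunits lower and none higher. The shares over all genes were 13.9% lower and 11.2% higher. Without control soma replicate 4, 4 were lower, the same 3 and Dctn5, and 2 were higher, Dctn1 and Dctn4. Dctn3, which encodes the p24 subunit of the dynactin shoulder, had 230, 288 and 304 CPM in control somata (lowest, median and highest) and 186, 201 and 247 CPM in stretched somata. It fell by 0.49 ± 0.09 on the log2 scale (SE, adjusted p = 0.00484 with edgeR), and only control replicate 4 reached into the stretched range. Dctn2 (dynamitin, which holds the shoulder to the filament) fell by 0.32 ± 0.07 (SE, adjusted p = 0.00656), from 305 to 359 CPM in controls to 258 to 295 CPM without overlap. Dctn6, a pointed-end subunit, fell by 0.36 ± 0.09 (SE, adjusted p = 0.0126), from 93.8 ± 11.0 to 74.9 ± 3.96 CPM (SD, n = 6 each). The large subunit Dctn1 (p150Glued), which binds microtubules and dynein, went from 599 ± 65.2 to 700 ± 41.7 CPM (SD, n = 6 each) and did not pass (adjusted p = 0.0924), though it did without control soma replicate 4 (log2 fold change 0.22, adjusted p = 0.016). Dctn4, at 106 to 131 CPM in controls and 132 to 147 CPM in stretched somata, showed no overlap yet missed the threshold (log2 fold change 0.20 ± 0.07 SE, adjusted p = 0.0518).

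Of the 5 chains that form the body of dynein-1, 2 rose and 1 fell, and without control soma replicate 4, 3 rose and 1 fell. Dync1li2, a light intermediate chain that binds cargo adaptors, rose by 0.52 ± 0.11 on the log2 scale (SE, adjusted p = 0.00687 with edgeR). It lay at 122, 139 and 212 CPM in control somata (lowest, median and highest) and at 214, 225 and 239 CPM in stretched somata, so the groups did not overlap. The intermediate chains, which dock dynactin, went apart: Dync1i2 rose from 195 ± 22.4 to 245 ± 14.7 CPM (SD, n = 6 each, log2 fold change 0.29 ± 0.08 SE, adjusted p = 0.0163), and the neuronal Dync1i1 fell from 252 ± 22.2 to 218 ± 14.5 CPM (SD, n = 6 each, -0.25 ± 0.08 SE, adjusted p = 0.0364). The call of Dync1i1 was lost without 9 of the 12 libraries, each left out alone. The motor subunit Dync1h1 had 166, 193 and 310 CPM in control and 189, 251 and 290 CPM in stretched somata (log2 fold change 0.21 ± 0.15 SE, adjusted p = 0.305). Its highest control value was that of replicate 4, and without that library it passed (0.34, adjusted p = 0.0256). Dync1li1, at 157 ± 10.2 and 168 ± 14.3 CPM (SD, n = 6 each), did not pass (adjusted p = 0.63), nor did the dynein-2 genes Dync2h1 and Dync2li1, which serve cilia.

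**Figure D2:**
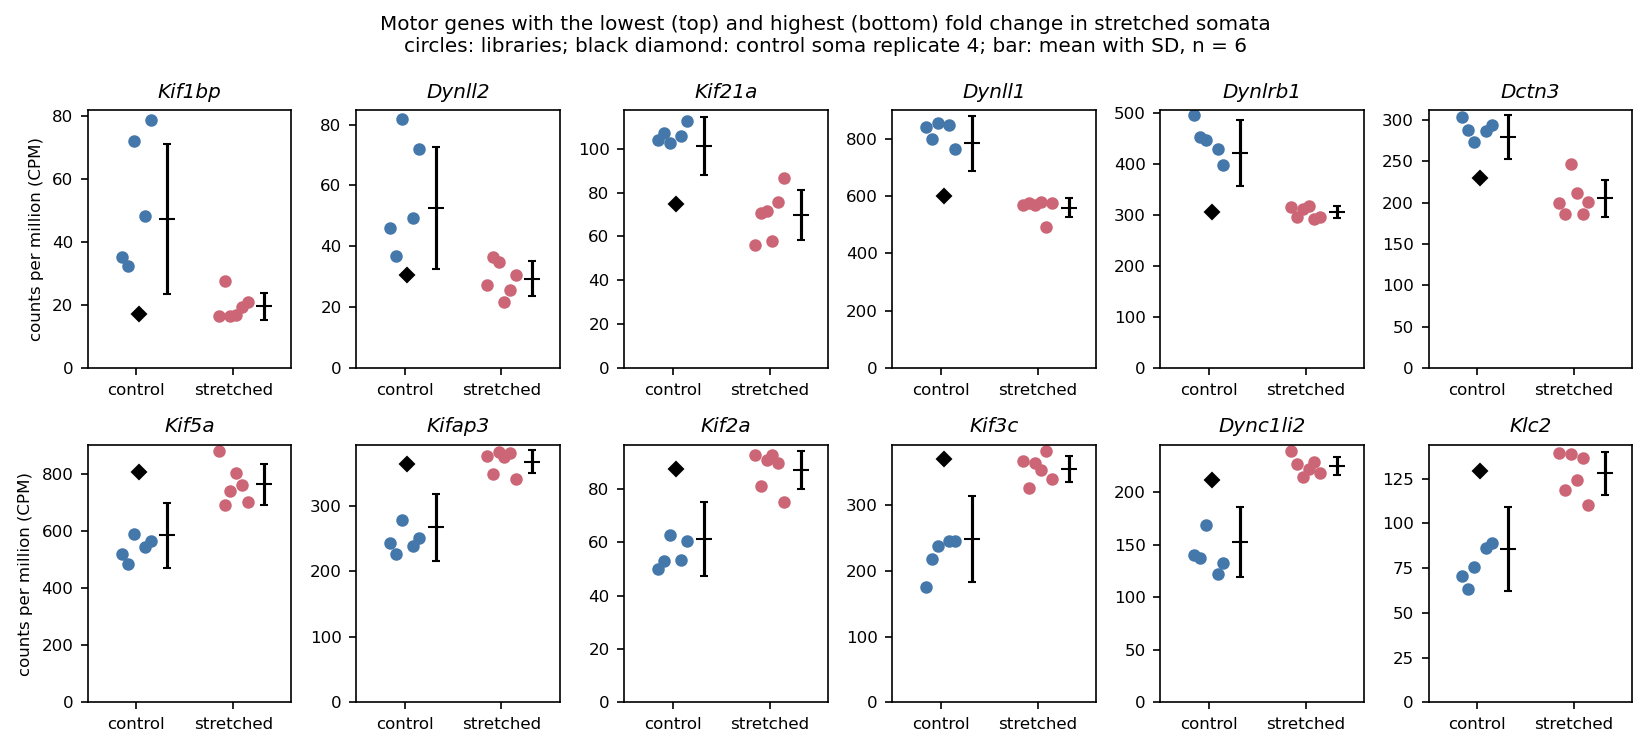
CPM (y axis, from 0) in each of 6 control and 6 stretched soma libraries for the 12 called motor genes with at least 10 CPM and the lowest (top) or highest (bottom) fold change; bars give mean and SD, and the black diamond is control soma replicate 4. In Dynll1 the stretched libraries sit between 491 and 579 CPM and the diamond at 601 CPM, while the other controls start at 763 CPM.

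Kinesin-2, which drives anterograde transport and traffic in cilia, had 4 of 5 genes called, 3 higher and 1 lower, against 25.1% of all genes. Without control soma replicate 4 the same 4 were called, against 38.3% of all genes. The accessory subunit Kifap3 rose from 226, 248 and 365 CPM in control somata (lowest, median and highest) to 342, 376 and 383 CPM, a log2 fold change of 0.42 ± 0.10 (SE, adjusted p = 0.0106 with edgeR). The neuronal motor subunit Kif3c rose from 249 ± 65.3 to 355 ± 19.9 CPM (SD, n = 6 each, 0.48 ± 0.13 SE, adjusted p = 0.0179) and Kif3b from 133 ± 18.9 to 168 ± 12.2 CPM (0.30 ± 0.09 SE, adjusted p = 0.027). Kif3a, the motor subunit that pairs with either of them, fell from 273, 362 and 387 CPM to 266, 279 and 294 CPM (-0.37 ± 0.08 SE, adjusted p = 0.00916). For each of the 4 genes the control libraries other than replicate 4 lay on one side of all stretched libraries. The call of Kif3b was lost without control replicate 1, 2 or 3 or stretched replicate 1 or 6, each left out alone. Kif17, a homodimeric kinesin-2 of dendrites, had 2.76 to 8.99 CPM in controls and 5.29 to 7.06 CPM in stretched somata, and did not pass.

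In kinesin-1, the main motor of fast anterograde transport, 2 of 7 genes rose and none fell. Without control soma replicate 4 the same 2 rose, and Klc1 (-0.19, adjusted p = 0.0347 with edgeR) and Klc4 fell. The heavy chain Kif5a (chromosome 10, 127225696 to 127263348, minus strand) had 486, 555 and 808 CPM in control and 692, 753 and 884 CPM in stretched somata. The highest control value was replicate 4, and the other controls ended at 592 CPM. The log2 fold change of Kif5a was 0.35 ± 0.11 (SE, adjusted p = 0.0301 with edgeR), and 7 of the 12 fits without a single library lost the call. The light chain Klc2 rose from 63.2, 81.1 and 129 CPM to 110, 130 and 139 CPM (0.54 ± 0.14 SE, adjusted p = 0.0155). Klc1, the most abundant light chain, read 1018 ± 46.8 and 945 ± 84.0 CPM (SD, n = 6 each, adjusted p = 0.142), Kif5b 272 ± 18.3 and 251 ± 20.4 CPM (adjusted p = 0.151), and Kif5c 1310 ± 210 and 1336 ± 165 CPM (adjusted p = 0.957). For Kif5c the 95% interval of the log2 fold change ran from -0.23 to 0.21.

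Of the 7 kinesin-3 genes, only Kif1bp was called, with or without control soma replicate 4. It encodes a partner that binds kinesins and blocks their hold on microtubules, and is no motor itself. Kif1bp fell by 1.31 ± 0.30 on the log2 scale (SE, adjusted p = 0.0104 with edgeR), from 17.3, 41.7 and 78.6 CPM in control to 16.4, 18.1 and 27.5 CPM in stretched somata, the lowest log2 fold change of the 65 genes. Its controls other than replicate 4 spanned 32.3 to 78.6 CPM. Kif1a read 959 ± 104 and 1059 ± 90.8 CPM (SD, n = 6 each, log2 fold change 0.10, 95% interval -0.06 to 0.27), and Kif1b, a carrier of mitochondria and vesicles, 556 ± 70.7 and 619 ± 47.8 CPM (0.12, -0.06 to 0.29).

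Of the 11 other interphase kinesins, 3 rose and 1 fell, and without control soma replicate 4, 6 rose and 2 fell. Kif21a, which halts microtubule growth at the cell edge, fell from 74.9, 105 and 113 CPM to 56.3, 71.1 and 86.6 CPM (-0.58 ± 0.12 SE, adjusted p = 0.0065 with edgeR). Kif2a, a kinesin-13 that takes microtubules apart and limits collateral branches, rose from 50.1, 57.0 and 87.6 CPM to 75.2, 90.3 and 92.8 CPM (0.47 ± 0.12 SE, adjusted p = 0.0149). Kif26a and Kif9 rose too, at low levels: Kif9 from 4.18 ± 1.66 to 7.20 ± 1.03 CPM (SD, n = 6 each, adjusted p = 0.0301) and Kif26a from 2.36 ± 1.22 to 4.21 ± 0.598 CPM (adjusted p = 0.0439). The call of Kif26a was lost without 11 of the 12 libraries, each left out alone, and that of Kif9 without 6. Kif21b, a motor of neuronal processes, read 138 ± 50.0 and 208 ± 43.3 CPM and did not pass (adjusted p = 0.0563).

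None of the 13 kinesins of cell division passed, while Kif18b and Kif23 fell without control soma replicate 4, and their log2 fold changes ran from -0.73 (Kif18b, adjusted p = 0.0711 with edgeR) to 0.11 (Kif11, adjusted p = 0.733). Kif11, the spindle motor that pushes poles apart, read 16.5 ± 4.04 and 18.4 ± 6.16 CPM (SD, n = 6 each), and Kif22, a chromosome arm motor, 17.8 ± 7.53 and 14.0 ± 5.02 CPM. Levels of some of the 13 genes differed between the library sets, while the sum over the 13 overlapped. Summed over the 13 genes, set A had 130 to 174 CPM and set B 109 to 140 CPM, and 10 proliferation markers summed to 208 to 330 CPM in set A and 139 to 187 CPM in set B. Kif22 had 13.4 to 29.1 CPM in set A and 8.76 to 13.0 CPM in set B, and Kif20a, needed for cytokinesis, 15.9 to 21.9 and 11.6 to 14.4 CPM, both without overlap. Of the 13 genes these 2 lay higher in set A without overlap (15.4%, against 3.36% of all genes tested). Dynlt1b and Dynlrb2, outside this group, did so too, which made 4 of the 65 motor genes (6.15%). Kif18a, a motor of chromosome alignment, went the other way, with 16.6 to 25.3 CPM in set A and 27.5 to 37.0 CPM in set B, 1 of 13 (7.69%, against 1.69% of all genes), and the part of the sets in the levels was not tested.

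To show what these promoters hold, 250 bases before the RefSeq start site are given for a light chain and a dynactin subunit that fell and for a spindle kinesin (RefSeq, GRCm38.p6). Capitals mark the letters of 3 motifs. A GC box was searched as GGGCGG. The cell cycle homology region (CHR) was searched as TTTGAA. The third motif, the CCAAT box, was searched by the letters of its name. Each was searched on both strands, and matches could overlap.
Dynll1, chr5:115300991-115301240, minus strand: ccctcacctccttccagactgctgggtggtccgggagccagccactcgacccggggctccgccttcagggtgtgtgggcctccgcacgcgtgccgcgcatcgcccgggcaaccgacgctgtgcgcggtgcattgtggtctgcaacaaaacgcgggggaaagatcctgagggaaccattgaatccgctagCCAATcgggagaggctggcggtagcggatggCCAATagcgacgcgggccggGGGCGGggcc
Dctn3, chr4:41723164-41723413, minus strand: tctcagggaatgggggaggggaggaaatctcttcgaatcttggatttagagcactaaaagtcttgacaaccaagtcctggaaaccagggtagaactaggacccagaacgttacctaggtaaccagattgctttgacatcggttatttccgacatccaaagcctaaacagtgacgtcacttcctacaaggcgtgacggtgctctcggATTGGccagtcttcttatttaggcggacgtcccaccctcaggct
Kif11, chr19:37376132-37376381, plus strand: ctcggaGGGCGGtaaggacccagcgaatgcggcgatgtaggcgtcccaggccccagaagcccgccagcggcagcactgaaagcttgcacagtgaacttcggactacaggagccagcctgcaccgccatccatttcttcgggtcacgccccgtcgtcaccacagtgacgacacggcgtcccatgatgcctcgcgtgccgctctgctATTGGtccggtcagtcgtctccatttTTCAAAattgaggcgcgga

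RefSeq windows were matched for 49 of the 65 genes, 56 windows in all. A GC box stood in 34 windows (60.7%), against 32.7% of the 32851 windows of the table, and a CCAAT box in 25 (44.6%, against 33.8%). The CHR letters stood in 8 motor gene windows (14.3%, against 16.0%), of which 5 belonged to the 12 windows of cell division kinesins (41.7%). Among genes called lower in stretched somata, 5 of 9 windows held a CCAAT box (55.6%), and among those called higher 2 of 10 (20.0%). For the GC box these counts were 5 of 9 (55.6%) and 5 of 10 (50.0%), and for the CHR letters 0 in both. The 9 windows came from 8 genes and the 10 from 7, and those of Dynlrb1 and of Kif9 overlap. Other motifs were searched too and are not given here. These matches describe letters only, and no window was tested for binding.

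Transcript length moved with the soma result. Across the 65 motor genes, the log2 fold change and the transcript length had a Spearman rho of 0.448, and across 15619 genes 0.482, which is a description across genes of the same libraries. Motor genes called higher had a median length of 4965.5 bases, those called lower 2253 bases and those not called 3453 bases. Under 3000 bases, 1 of 24 motor genes was called higher and 8 lower, among them Dynll1, Dynlrb1 and Dctn3, and over all genes of that length 176 of 7543 were higher and 1729 lower. At 5000 bases or more, 5 of 21 were called higher and 1 lower, and over all genes of that length 747 of 3223 were higher and 120 lower. Without control soma replicate 4 the motor genes numbered 1 higher and 11 lower under 3000 bases and 8 higher and 1 lower at 5000 or more. With length and GC content as offsets in the edgeR fit, 14 motor genes were called, 7 higher and 7 lower, against 13.8% of all genes. Kif5a, Kif2a, Kif3b, Kif9, Dync1i1, Dynlrb1, Dctn2, Dctn3 and Dctn6 lost their call there. The log2 fold change of Kif2a was then 0.09 and that of Dctn2 -0.07, whereas Kif9 stayed at 0.70 against 0.74 (adjusted p = 0.0536), and 3 others passed, Kif5b among them (-0.52). The part of length in the differences was not tested further.

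**Figure D3:**
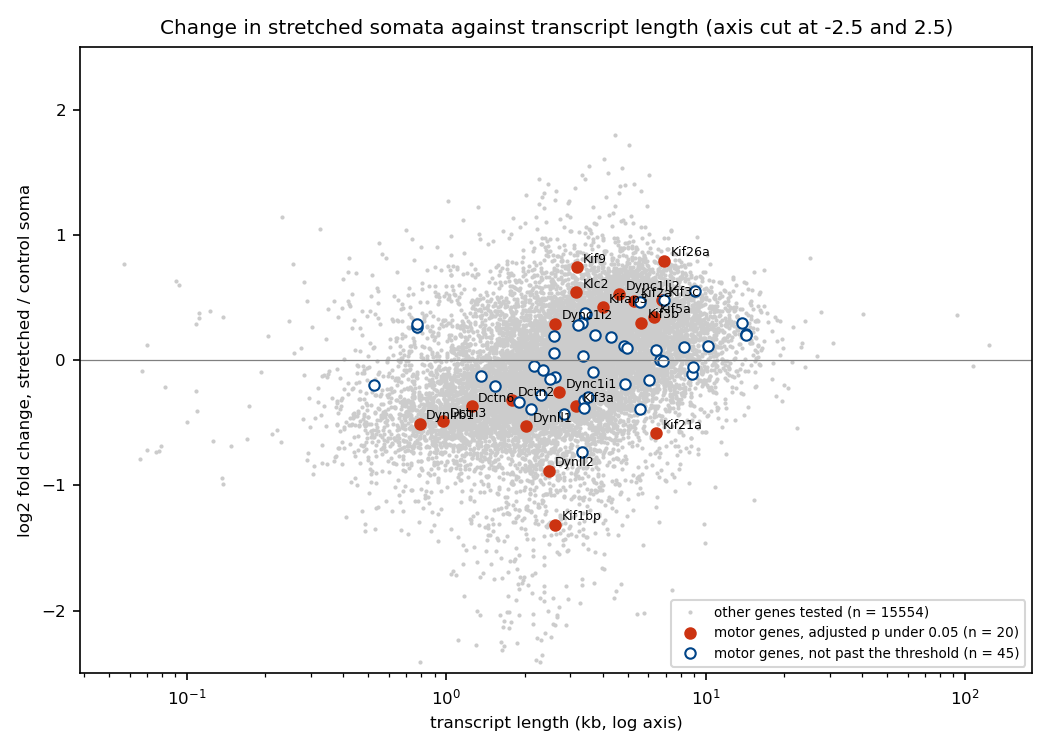
Log2 fold change in stretched against control somata (y axis) against transcript length in kb (log x axis), for all genes tested (grey) and the 65 motor genes (coloured by call). Motor genes called lower have a median length of 2253 bases and those called higher 4965.5 bases.

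Of the 20 called genes, Dync1li2, Dynll1, Kif21a, Kif3a, Kifap3 and Klc2 passed in each of 22 alternatives to the settings used, set B alone being the other. Within set B, which holds control soma replicate 4, none of the motor genes and none of 15718 genes passed with edgeR, with 19 motor genes and 2739 genes at an unadjusted p under 0.05. DESeq2 called 162 genes and no motor gene there. Log2 fold changes there were -0.46 for Dynll1, 0.49 for Dync1li2, -0.54 for Kif21a and 0.24 for Kif5a. Within set A, 23 motor genes passed, 14 higher and 9 lower (35.4%, against 29.2% of all genes).

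Genes outside the motor families that work with them were counted from listed partners. Of 17 dynein regulators and adaptors tested, 3 rose and 1 fell in stretched somata, where 11.2% of all genes were higher and 13.9% lower. Without control soma replicate 4, 4 rose and 2 fell. Pafah1b1, which encodes the dynein regulator LIS1, rose from a mean of 171 to 256 CPM (log2 fold change 0.54 ± 0.13 SE, adjusted p = 0.0102 with edgeR). Of 26 kinesin adaptors 5 rose and 1 fell, and 12 rose and 1 fell without that library, where 18.2% of all genes were higher and 20.1% lower. Those that rose were Madd, which links Kif1a and Kif1b to Rab3 vesicles (0.62), Kidins220 (0.48), Mapk8ip3 (JIP3, 0.40), Clstn3 (0.39) and Trak1, the adaptor of mitochondria (0.34), and Plekhm2, which couples kinesin-1 to lysosomes, fell by 0.48 on the log2 scale. Of 6 partners of dynactin, the capping protein subunits went apart, with Capza1 up by 0.41 and Capzb down (-0.32). Of 10 neuron markers, 6 fell in the same comparison, among them Nefm (-0.75), and their summed level ran from 7746 to 9497 CPM in control and from 7498 to 7929 CPM in stretched somata. Of the astrocyte markers, none of 9 tested passed, of the 9 microglia markers tested C1qa and C1qb fell, and 1 of 7 oligodendrocyte markers, Mog, rose. The part of a shift between cell types in the motor gene values was not tested.

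In axonal RNA the motor genes were patchy. In all 11 axonal libraries 13 of the 65 had counts, namely Kif5c, Kif1a, Klc1, Dynll1, Kif1b, Dynlrb1, Dync1i2, Dctn3, Kif5b, Dctn4, Dynlt1a, Dync1li2 and Dynlt1b. Kif3a had counts in 10 libraries, and Dync1li1, Kif5a, Dync1h1, Dynlt1f, Dynlt1c and Kif2a in 9. Kif9, Kifc5b, Kif26a and Kif14 had none in any. By role, 6 of 9 dynein light chains had counts in at least 9 libraries, as had 4 of 7 kinesin-1 genes and 4 of 5 dynein-1 body chains. The 6 light chains were Dynll1, Dynlrb1 and the near-identical Dynlt1a, Dynlt1b, Dynlt1c and Dynlt1f, whose counts are uncertain. By contrast, 9 of 13 cell division kinesins had counts in at most 2 libraries. These counts by role were not set against a share of all genes. Among genes with few axonal libraries, the highest soma levels were those of Kif21b (2 libraries), Klc2 (2), Kif11, Kifc1 and Kif13b (1 each). Detection went with soma level. At 100 CPM or more in somata a median of 76% of 25 motor genes was detected per axonal library, against 76.1% of 2354 protein-coding genes. Between 10 and 100 CPM the shares were 38.1% of 21 and 34.8% of 7056, and between 1 and 10 CPM 15.8% of 19 and 10.6% of 3586.

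**Figure D4:**
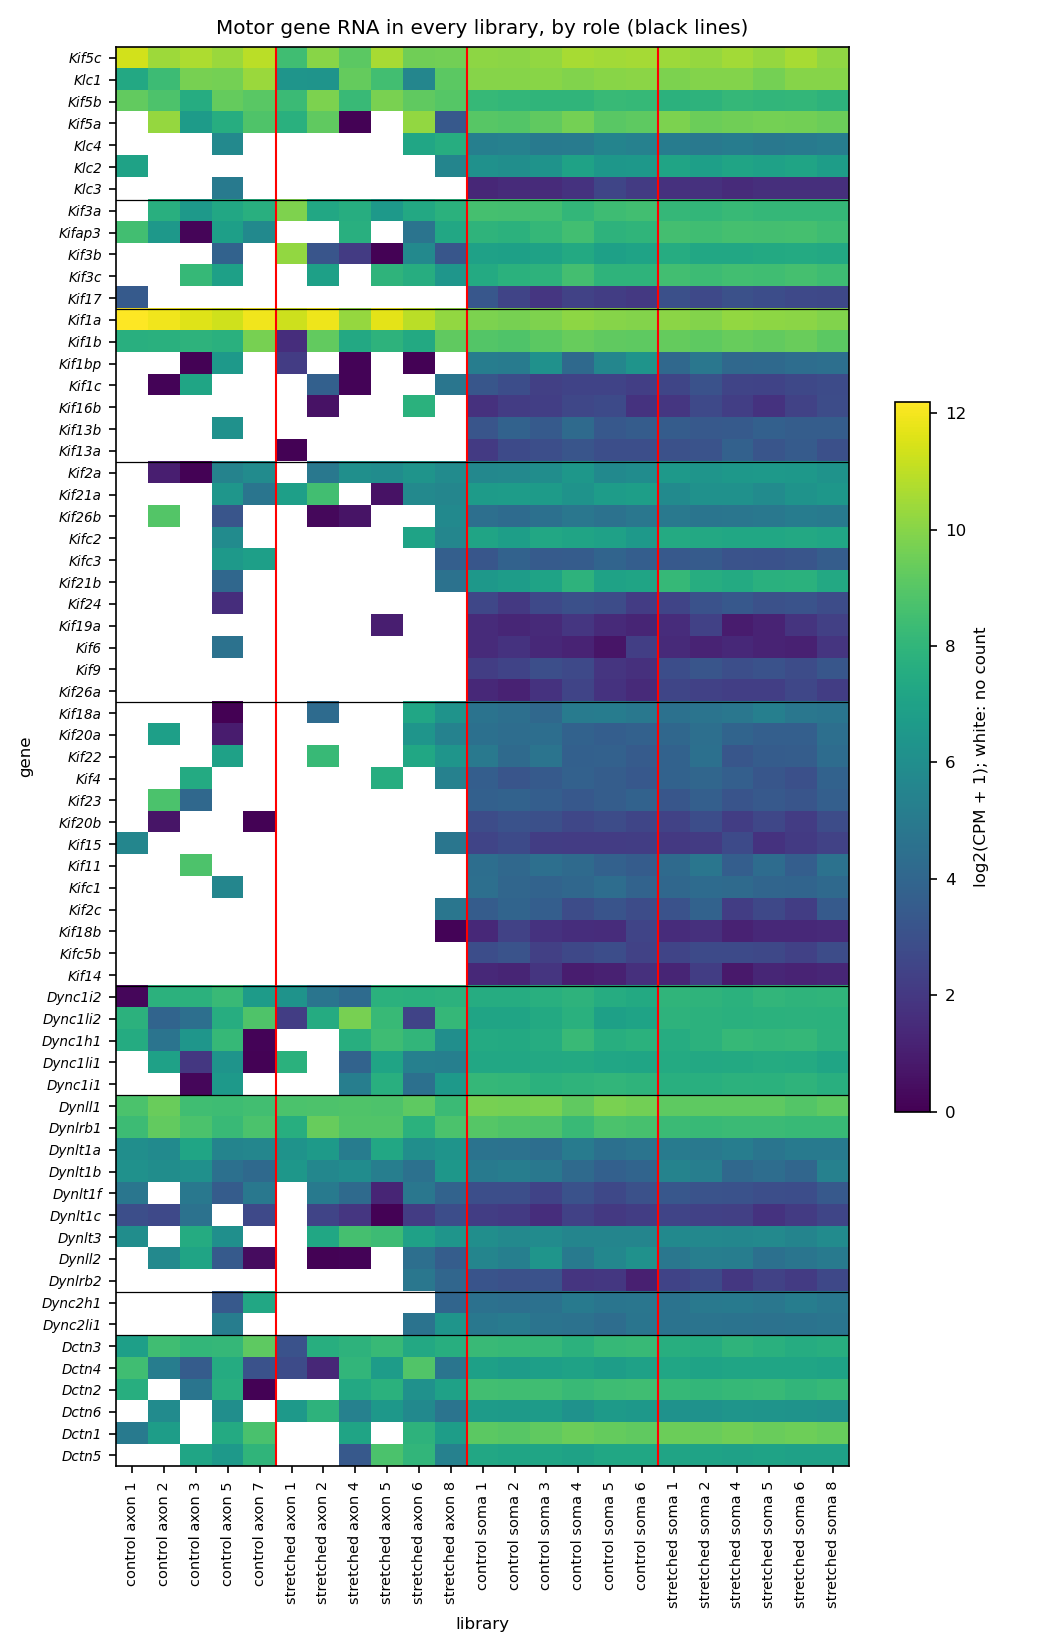
Log2(CPM + 1) of the 65 motor genes (rows, by role) in all 23 libraries (columns), with white for no count. Soma columns have no white cell, and in axonal columns 21 to 48 genes are coloured.

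Kif1a was the most counted motor gene in 11 of 11 axonal libraries, and Kif5c in 12 of 12 soma libraries, without regard to transcript length. Divided by length, Kif1a was not first, with a mean of 353 CPM per kb over the axonal libraries against 522 for Dynlrb1. In control axons (replicates 1, 2, 3, 5 and 7) Kif1a had 4685, 3848, 3085, 2518 and 3849 CPM, and in control somata 831 to 1126 CPM. Every control axon library lay above every control soma library. Kif1a was higher in control axons by 1.63 ± 0.12 on the log2 scale (SE, adjusted p = 5.86e-06 with edgeR), the sole motor gene called higher.

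Between control axons and control somata 14 of 65 motor genes were called (21.5%), 1 higher and 13 lower, against 35.3% of 14728 genes, 0.856% higher and 34.4% lower. Since a level in somata was required of every motor gene, this count favours lower calls by construction. The median log2 fold change was -1.04 over the motor genes and -1.40 over all genes. Without control axon replicate 5, 28 motor genes were called, the same 14 among them, 2 higher and 26 lower (43.1%, against 53.6% of all genes). The CPM of the groups did not overlap for 24 motor genes, 36.9% against 41.6% of all genes. No count in any control axon library stood for 10 of the 65 motor genes and for 3995 of the 14728 genes (27.1%). All 10 were among the 13 lower genes (Kif13a, Kif14, Kif16b, Kif18b, Kif19a, Kif2c, Kif26a, Kif9, Kifc5b and Dynlrb2). Their soma means were 1.68 to 9.45 CPM, at least 13.2- to at least 74.4-fold above the level that 3 counts per library allow. Dynll1 had 425, 686, 345, 342 and 366 CPM in control axons and fell below its soma level by 1.14 ± 0.21 on the log2 scale (SE, adjusted p = 0.000595). The spindle kinesins Kif20b and Kif18a made up the rest, at means of 0.127 and 0.00465 CPM in control axons and 6.12 and 26.1 CPM in control somata.

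In stretched cultures 20 of 65 motor genes were lower in axons than in somata and none was higher (30.8%), against 29.3% of 14466 genes, 28.4% lower and 0.843% higher. The median log2 fold change was -1.48 over the motor genes and -1.13 over all genes, and the groups did not overlap for 29 motor genes, 44.6% against 35.9% of all genes. The soma level required of every motor gene favours lower calls here too. No count stood in any stretched axon library for 13 of the 65 motor genes and for 3172 of the 14466 genes (21.9%). All 13 were among the 20, namely Kif11, Kif13b, Kif14, Kif17, Kif20b, Kif23, Kif24, Kif26a, Kif6, Kif9, Kifc1, Kifc5b and Klc3. Their soma levels were at least 11.7- to at least 132-fold above the limit of 3 counts per library. Lower calls in both control and stretched cultures were shared by 9 motor genes. Of the 13, Kif11 had 443 CPM in control axon replicate 3 and Kif23 426 CPM in control axon replicate 2. Kif18a, called lower in control axons, had a mean of 40.0 CPM in stretched axons and 27.5 CPM in stretched somata. Kif5c had 347, 762 and 1564 CPM in stretched axons (lowest, median and highest of 6) and 1146, 1307 and 1575 CPM in stretched somata (log2 fold change -1.13 ± 0.34 SE, adjusted p = 0.0236 with edgeR). Klc1 spread from 46.8 to 641 CPM around 223 CPM in stretched axons, below all stretched somata (812 to 1025 CPM; -2.10 ± 0.66 SE, adjusted p = 0.0301). Dynll1 was lower in axons (-0.83 ± 0.19 SE, adjusted p = 0.00447), and Kif1bp had a mean of 0.607 CPM in stretched axons and 19.6 CPM in stretched somata (adjusted p = 0.031). Kif1a had 1208, 2230 and 3724 CPM in stretched axons and 943 to 1187 CPM in stretched somata. It did not pass with edgeR (0.61, 95% interval 0.12 to 1.11, adjusted p = 0.108), though it did with DESeq2 (0.79, adjusted p = 0.0164). DESeq2 called 3 motor genes higher and 21 lower there (36.9%, against 33.6% of all genes).

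These values depended on the scaling. With total counts in place of TMM factors, the median of all genes shifted by 0.143 on the log2 scale in control cultures and by 0.367 in stretched cultures. In stretched cultures 18 motor genes were then called, 3 higher and 15 lower (27.7%, against 29.9% of all genes). Kif1a passed as higher (1.13, adjusted p = 0.0061 with edgeR). Kif5c (-0.67, adjusted p = 0.156), Klc1 (-1.68, adjusted p = 0.0652), Dynll1 (-0.34, adjusted p = 0.258) and Kif1bp (-4.99, adjusted p = 0.0606) did not pass with edgeR.

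Stretch within axons gave no call, for 0 of 31 motor genes tested and 0 of 4947 genes (0%) with edgeR, and the groups overlapped for each of the 31, while 0.323% of all genes did not overlap. At an unadjusted p under 0.05 stood 46 genes, of which 2 were motor genes, and DESeq2 called 18 genes and no motor gene. Kif5c had 2618, 1339, 1664, 1315 and 1954 CPM in control axons and 347, 762 and 1564 CPM in stretched axons (lowest, median and highest). The groups overlapped, the log2 fold change was -1.06 ± 0.38 (SE, 95% interval -1.80 to -0.31), and its unadjusted edgeR p of 0.0143 became 1 after adjustment. Kif1a went from 3597 ± 827 CPM (SD, n = 5) to 2316 ± 1041 CPM (SD, n = 6). Its log2 fold change was -0.65 (95% interval -1.17 to -0.13), with an unadjusted p of 0.0261 and an adjusted p of 1 by edgeR. Kif3b, next by p, had counts in 1 of 5 control axon libraries (13.4 CPM) and rested on a single stretched library at 1172 CPM.

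Intervals in axons were wide. The biological coefficient of variation was 2.39 in axons and 0.24 in somata. Klc1 had 162, 330, 816, 801 and 1324 CPM in control axons and 46.8 to 641 CPM in stretched axons (log2 fold change -1.19, 95% interval -2.82 to 0.43). Dynll1, which fell in stretched somata, had 318, 441 and 575 CPM in stretched axons (0.04, -1.06 to 1.15), and Dynlrb1 197, 445 and 649 CPM (-0.04, -1.28 to 1.19). Kif5a ranged from 0 to 1217 CPM over control and from 0 to 1179 CPM over stretched axons, and Dync1h1 from 0.0777 to 285 CPM and from 0 to 340 CPM.

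**Figure D5:**
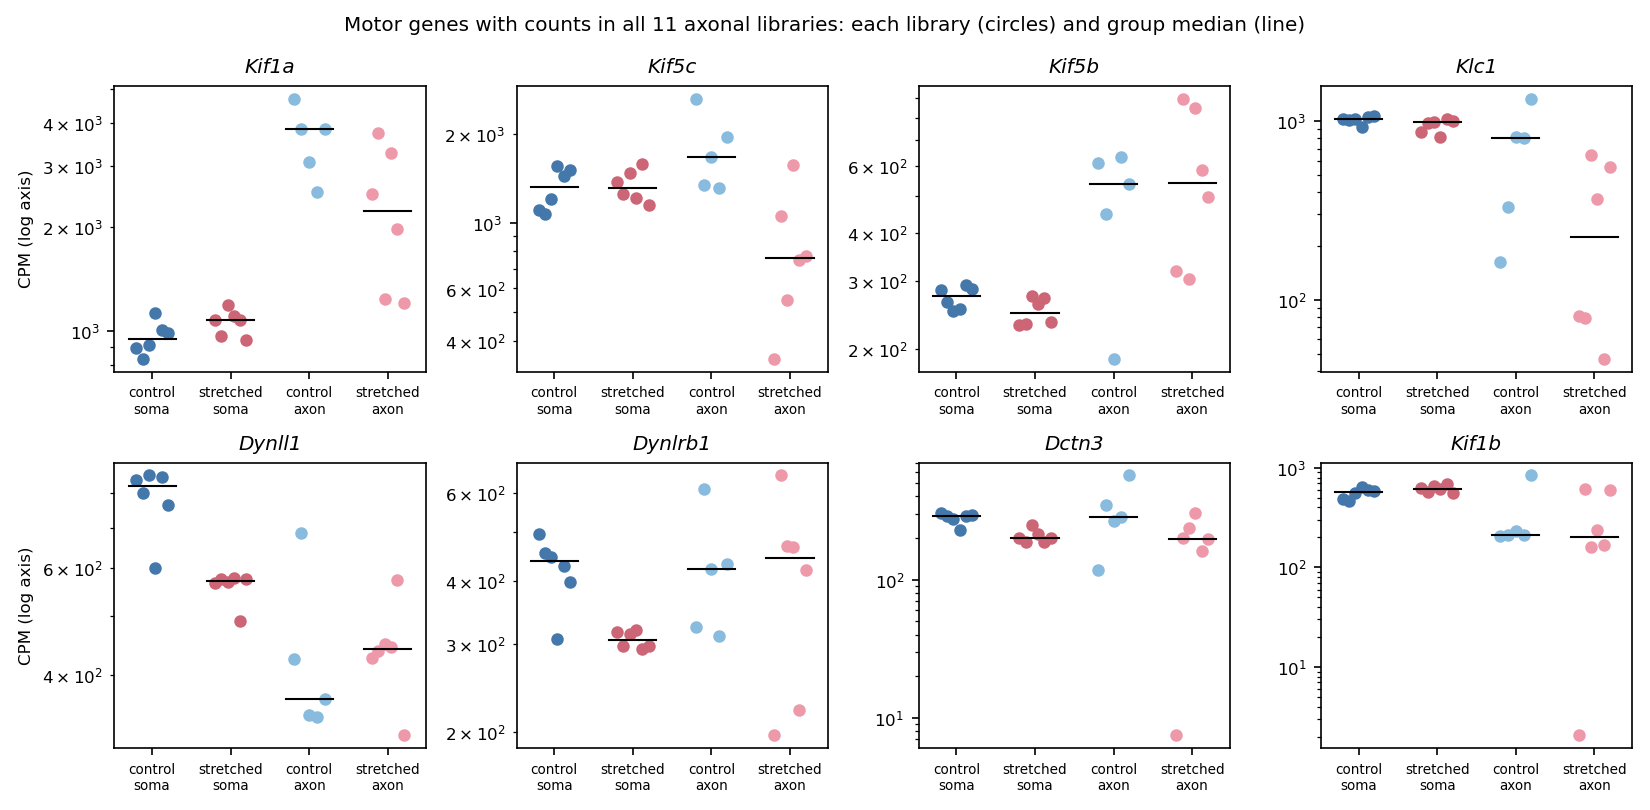
CPM (log y axis) in each library of the 4 groups (circles), with the group median as a line. Shown are Kif1a, Kif5c, Kif5b, Klc1, Dynll1, Dynlrb1, Dctn3 and Kif1b, from the 13 motor genes with counts in all 11 axonal libraries. Kif1a reaches 4685 CPM in control axons, above its 831 to 1187 CPM in somata, and axonal values spread more widely than soma values.

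The difference between the effect of stretch in axons and in somata was tested per gene from both edgeR fits. Its normal p does not allow for the small number of libraries, so the unadjusted p-values of this difference run low. None of 31 motor genes passed, against 2 of 4882 genes (0.041%, with 0.0205% in each direction), and 72 genes with 2 motor genes had an unadjusted p under 0.05. For Kif1a the difference (axon minus soma) was -0.76 ± 0.28 (SE, unadjusted p = 0.00642, adjusted p = 1 from the edgeR fits), and for Kif5c -1.05 ± 0.40 (unadjusted p = 0.00838, adjusted p = 1). A joint edgeR fit over the 4 groups, which gives axons and somata a shared spread, called 13 of 65 motor genes, 4 higher and 9 lower, 20.0% against 21.8% of all genes.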

How the data were processed

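For each of 23 libraries the authors deposited a list of Ensembl gene IDs with the count of reads of each gene, not normalized. Per the submitters' processing notes, FastQC 0.11.9, MultiQC 1.12, fastp 0.20.1, STAR 2.7.08a, HTSeq 0.13.5 and the mm10 genome were used. The annotation, the strand setting and any use of the molecular identifiers of the kit are not given in the sources used here. Without strand, reads of overlapping antisense genes cannot be told apart. Uncounted reads were left out of totals: those in no feature came to 3.18 to 7.94%, ambiguous ones to 4.37 to 5.94% and those aligned to several places to 5.43 to 13.4%.

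For each comparison edgeR was run only on the libraries compared, with edgeR 4.0.16 in R 4.3.3 (filterByExpr, TMM factors, robust quasi-likelihood F test). P-values were Benjamini-Hochberg adjusted over all genes tested, with a threshold of 0.05. CPM values are counts per 1000000 counted reads without TMM factors. Per-kb values, coordinates and coding sequences used the longest protein-coding GENCODE vM21 transcript of each gene on GRCm38. The difference between compartments was taken from both fits, with SEs combined and a two-sided normal p. SEs were derived from the F statistic, and 95% intervals use the normal quantile. Neither the normal p nor this quantile allows for the small number of libraries, so such p-values run low and the intervals narrow. The fits were tested on simulated data. DESeq2 1.42.0, other scaling factors, no filter, a replicate block, offsets for length and GC, the library sets as a covariate or alone, and leaving out each library were the alternatives. Total counts in comparisons with axons and a block over pairs 1, 2, 5 and 6 were added after seeing the data.

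The genes, roles, marker and partner lists were chosen with earlier results of these data known. Values in detail were given for a fixed backbone of 22 genes, for up to 6 highest and 6 lowest called genes of at least 10 CPM per comparison (or the 3 smallest p where none passed), for genes with counts in at least 9 axonal libraries and for the 5 highest in somata among those in few axonal libraries. Kif9, Kif26a, Kif21b, Kif17, Kif18b, Kif20a, Kif22, Dctn6 and Dynlt3 were named after their values were seen.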

Additional observations from a re-analysis of the deposited data

Results flagged for a closer look

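Of 82 groups of libraries examined for a value far from the others (Dixon's test at 95%, critical gap 0.71 of the range for 5 libraries and 0.625 for 6), 15 held such a value, where chance gives about 1 in 20. Of the 15, 10 belonged to control soma replicate 4. There Kif5a stood at 808 CPM (other controls 486 to 592), Kif3c at 371 (175 to 245), Dync1h1 at 310.0 (166 to 219), Kif3b at 170.1 (120 to 134), Kif2a at 87.6 (50.1 to 62.6) and Kif26a at 4.69 (1.28 to 2.43), all above. Below the others stood Klc1 at 930 CPM (1015 to 1060), Dynll1 at 601 (763 to 854), Dctn2 at 305 (342 to 359) and Kif21a at 74.9 (103 to 113). In each of these genes the value lay toward the stretched group.

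Dynll1 was also lowest by far in stretched soma replicate 6, at 491 CPM (568 to 579 in the others), and highest by far in control axon replicate 2, at 686 CPM (342 to 425). In axons, Kif1b reached 838 CPM in control replicate 7 (205 to 234), Dynlt1a 142 CPM in control replicate 3 (44.6 to 63.9) and Dync1li2 815 CPM in stretched replicate 4 (3.58 to 298).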

How the results depend on the processing

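In somata the count of 20 called genes became 33 without control soma replicate 4, and ran from 16 to 33 over the fits without a single library. The share of all genes called moved too, from 16.8 to 38.3% over those fits. Within set B alone it was 0 (0% of all genes). The replicate block with offsets for length and GC gave 11 (16.9%, against 11.5% of all genes). The block over pairs 1, 2, 5 and 6 gave 32 (49.2%, against 37.4% of all genes). The replicate block alone gave 18 (27.7%, against 20.7% of all genes) and ended the calls of Dync1i1, Dync1i2, Dctn6, Dynll2 and Kif3b. With the share of all genes in brackets, DESeq2 gave 25 (31.0%), total counts 25 (25.6%), no filter 19 (9.22%) and offsets 14 (13.8%). The set covariate gave 28 (33.9%) and set A alone 23 (29.2%). Deviations from the group means correlated at 0.0752 to 0.285 within soma libraries of one number, and at most at 0.0702 in comparisons with axons. With 2 of 5 soma pairs best with their own number, the numbers were not taken as pairing. Over the fits without a single library, axon against soma gave 14 to 28 called genes in control cultures (32.1 to 53.6% of all genes). The 28 came without control axon replicate 5. In stretched cultures those fits gave 16 to 28 (28.7 to 43.3% of all genes). The block gave 15 in control cultures (35.2% of all genes) and 27 in stretched ones (53.1%). The joint interaction called 13 genes (20.0%, against 21.8% of all genes). Stretch within axons gave 0 in every alternative run.

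Signs turned only for small soma values that were not called. Kif5c (-0.01) became 0.0141 with no filter, 0.00681 with the replicate block, 0.0279 with total counts, 0.000683 with the set covariate, 0.16 in set A and 0.0727 with the block over pairs 1, 2, 5 and 6, and ran from -0.0739 to 0.044 without single libraries. With offsets Klc1 became 0.00117, Kif1a -0.0473 (-0.0558 with the block) and Kif1b -0.0847 (-0.0805 with the block). Dync1li1 became -0.000512 in set A. The cause was not tested. Of 988 values for 47 single results, 846 kept their direction and side of the threshold, 105 lost the threshold, 19 passed it and 18 turned. Comparisons with axons are limited by detection, with counts for 21 to 48 of the 65 genes per axonal library. Total counts ran over overlapping ranges, 16369153 to 43048953 in axons and 20457514 to 30732600 in somata.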

Other observations

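Among the 13 motor genes with counts in every axonal library, 78 ratios between a pair of genes can be formed. For 1 of them, Kif5b over Kif5c, control and stretched axons did not overlap, and it was picked after its values were seen. Its log2 CPM ratio ran from -3.15 to -1.05 (median -1.86) in 5 control axon libraries and from -0.89 to -0.12 (median -0.50) in 6 stretched ones. In somata it ran from -2.61 to -1.96 in control and from -2.57 to -2.21 in stretched libraries, which overlap. No test was made.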
